A study of Mus musculus with 4 samples.

Results

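The 10 genes described here, Glrx, Srxn1, Slc7a11, Gclc, Gclm, Gsr, Nqo1, Txnrd1, Prdx1 and Nfe2l2, belong to the glutathione and thioredoxin systems and the NRF2 pathway, and were taken by symbol from the 22554 genes named once in each of the 2 deposited tables. All 10 were among the 10202 genes tested, those with at least 1 FPKM (fragments per kilobase of gene, relative to the library's total) in at least 2 of the 4 libraries. The study cocultured RAW264.7, a mouse macrophage line, with CT26, a mouse colon carcinoma line, and compared it with RAW264.7 kept as mock. There were 2 coculture libraries and 2 mock libraries, and replicate 1 of each group shares a table (pair 1), as does replicate 2 (pair 2). DMEM was the medium of the macrophages and RPMI1640 that of the CT26 cells. The sources used here do not give the duration or medium of coculture, the way macrophages were parted from tumour cells, or whether replicates were separate cultures. Each p-value rests on how far the 2 within-pair differences disagree, pulled toward a spread shared over all genes tested. As separate cultures are not stated, this disagreement may be technical or between cultures, which cannot be told apart here.

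Glutathione is a small thiol peptide that cells use to reduce peroxides and to protect protein cysteines. Cystine enters through the antiporter whose light chain is Slc7a11, is reduced to cysteine, and is joined to glutamate by glutamate-cysteine ligase, the rate-limiting enzyme of glutathione synthesis. NRF2, encoded by Nfe2l2, is held at low levels by KEAP1 and is mainly controlled at the protein level. When released, it binds antioxidant response elements with small MAF proteins and drives genes of this kind, while Slc7a11 is also a target of the amino acid response factor ATF4.

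Promoter windows of RefSeq (GRCm38.p6, 250 bases before to 50 after each start) were found for 8 of the 10 genes, all but Gclc and Gsr. They were searched on both strands for the antioxidant response element core TGACNNNGC and its form with G, TGAGNNNGC, the AP-1 site TGANTCA and the amino acid response element TGATGNAA. The AP-1 motif can overlap either of the first 2. The stretches below are shown because these letters are what members of the set share or do not share in sequence. Capitals mark the match, and each stretch reads 5′ to 3′ along the gene.

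Glrx, AP-1, 98 bases before the start, chr13:75839777-75839803, plus strand: taggaagtacTGACTCAtaccaaaatg
Slc7a11, amino acid response element, 66 bases before the start, chr3:50443662-50443689, minus strand: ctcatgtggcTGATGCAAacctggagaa
Slc7a11, the same element on the opposite strand, 47 bases before the start, chr3:50443643-50443670, minus strand: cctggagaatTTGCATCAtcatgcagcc
Srxn1, AP-1, 102 bases before the start, chr2:152105412-152105438, plus strand: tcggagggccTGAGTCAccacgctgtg
Srxn1, form with G over an AP-1 match, 45 bases before the start, chr2:152105469-152105497, plus strand: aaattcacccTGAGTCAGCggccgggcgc
Gclm, core on the opposite strand, 134 bases before the start, chr3:122245413-122245441, plus strand: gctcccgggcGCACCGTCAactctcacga
Prdx1, core on the opposite strand over an AP-1 match, 133 bases before the start, chr4:116685456-116685484, plus strand: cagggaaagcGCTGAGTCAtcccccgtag
Txnrd1, core on the opposite strand, 92 bases before 1 of its 3 starts, chr10:82859104-82859132, plus strand: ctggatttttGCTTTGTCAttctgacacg
Nfe2l2, core, 240 bases before the start, chr2:75704885-75704913, minus strand: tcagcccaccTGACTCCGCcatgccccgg

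The core was found in 5 of the 8 genes with a window (Srxn1, Gclm, Txnrd1, Prdx1 and Nfe2l2), and in 14.0% of all 27025 genes with one (12.4% of 32851 windows). In Srxn1 that core match lies 29 bases after the start. The form with G was found in 3 of the 8 (Srxn1, Slc7a11 and Prdx1) and in 19.8% of genes (17.6% of windows). AP-1 was found in 3 of the 8 (Glrx, Srxn1 and Prdx1) and in 8.97% of genes (7.81% of windows), and the amino acid response element in Slc7a11 alone of the 8 and in 4.51% of genes (3.97% of windows). No match to any of the 4 motifs was found in the window of Nqo1, and sequence outside the windows was not searched. A match describes letters in a window and was not tested for binding.

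The 10 genes did not move as 1 group in coculture. Glrx rose, the only 1 of the 10 to pass the test. Slc7a11 and Srxn1 were higher and Gclc was lower in both pairs without passing, and the remaining 6 differed little or in opposite directions. Differences are coculture minus mock in log2(FPKM + 1), and each ± is limma's moderated standard error with n = 2 pairs. In these bulk libraries, a change in the mix of cells and a change in RNA per cell cannot be told apart. The limma fit took the pair as a block, with Benjamini-Hochberg adjustment over all 10202 genes and a call at an adjusted p under 0.05. The 1 gene in 10 called higher stands beside 0.127% of all genes tested, and the 0 called lower beside 0.0%. At an unadjusted p under 0.05, limma had 3 of the 10 higher (Glrx, Slc7a11 and Srxn1), against 5.26% of all genes, and 1 lower (Gclc), against 9.45%. The members were chosen with earlier results of these data known, so these shares are a description only.

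**Figure D1:**
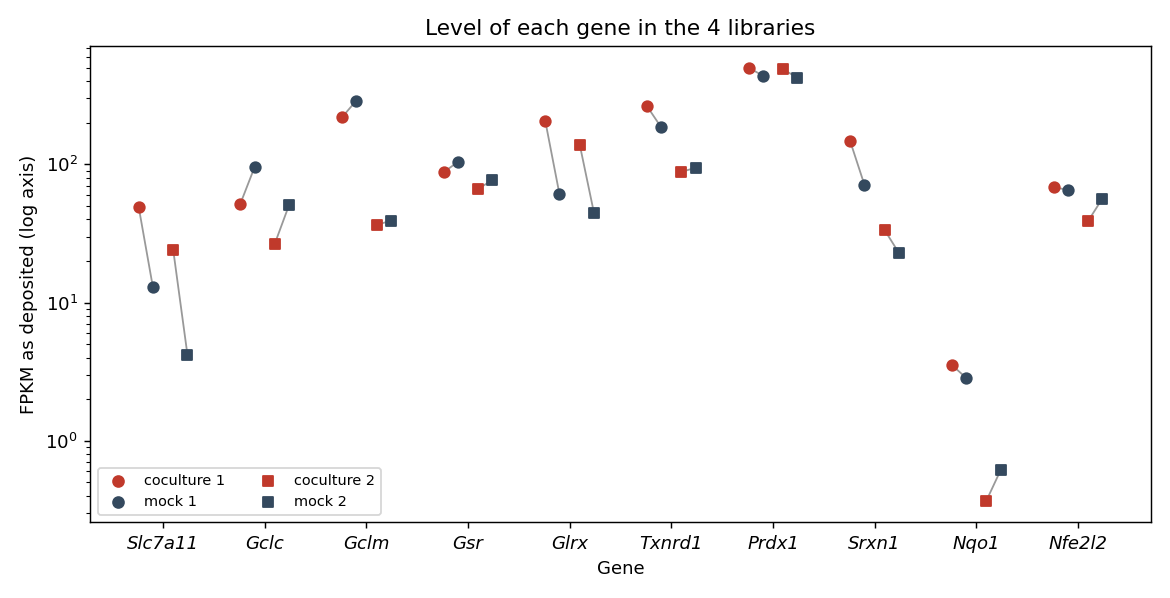
FPKM as deposited (log axis) of each gene in coculture (red) and mock (dark) libraries, with circles for pair 1, squares for pair 2 and a line joining the libraries of a pair. Glrx and Slc7a11 are higher and Gclc is lower in coculture in both pairs, and Nqo1 is below the other 9 genes within each library.

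Cystine import and glutathione synthesis held the largest difference of either direction among the 10. Slc7a11, the cystine carrier, stood at 49.3 and 24.0 FPKM in coculture 1 and 2 and at 13.0 and 4.19 FPKM in mock 1 and 2. Coculture was above mock in each pair. Coculture was 3.81 times mock in pair 1 and 5.74 times in pair 2. The difference was 2.06 ± 0.16 with an unadjusted 95% interval of 1.63 to 2.49. It did not pass (limma adjusted p = 0.0544). Of 13 alternatives it passed under 4, other scalings or a stricter filter, with adjusted p as low as 0.0114 after median centring. Slc7a11 did not pass with no filter on low values (limma adjusted p = 0.244) or without the pair block (0.99961). Only 0.784% of tested genes in pair 1 and 0.696% in pair 2 had a larger difference. Slc3a2, the heavy chain that carries Slc7a11 to the cell surface, was chosen after its values were seen. It stood at 81.7 and 68.5 FPKM in coculture and 61.8 and 58.4 FPKM in mock, a difference of 0.31 ± 0.12 (limma adjusted p = 0.338).

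Gclc, the catalytic subunit of glutamate-cysteine ligase, went the other way. It stood at 51.8 and 26.7 FPKM in coculture 1 and 2, against 95.4 and 50.9 FPKM in mock 1 and 2. Within each pair coculture was near the same fraction of mock, 0.543 in pair 1 and 0.526 in pair 2. The difference was -0.89 ± 0.11, with an unadjusted 95% interval of -1.18 to -0.59 (limma adjusted p = 0.102). It did not pass, and 97.7% of tested genes in each pair had a higher value. Gclm, the modifier subunit that raises the activity of the catalytic one, stood at 219 and 36.4 FPKM in coculture and 289 and 39.1 FPKM in mock. Its difference was -0.25 ± 0.13, with an interval of -0.60 to 0.10 (limma adjusted p = 0.440).

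Glutaredoxin and glutathione recycling also split. Glrx, which uses glutathione to remove glutathione from modified protein cysteines, stood at 207 and 138 FPKM in coculture 1 and 2, against 60.8 and 44.3 FPKM in mock 1 and 2. Coculture was higher than mock in both pairs. The ratios were close, 3.40 in pair 1 and 3.11 in pair 2. Glrx rose by 1.68 ± 0.11, with an unadjusted 95% interval of 1.38 to 1.98, and passed by a narrow margin (limma adjusted p = 0.04995). Of 13 alternatives, median centring gave its lowest adjusted p (limma, 0.0139). The call was lost with no filter on low values (limma adjusted p = 0.243) and without the pair block (0.825). Without any single library, unblocked and so across the tables, the Glrx difference ran from 1.39 to 1.97. Those fits leave a single library in a group and cannot decide a call. In rank, Glrx stood above 97.2% and 95.9% of tested genes in coculture, against 87.1% and 81.8% in mock. Gsr, the reductase that regenerates glutathione with NADPH, stood at 87.6 and 66.6 FPKM in coculture and 104 and 76.9 FPKM in mock. It was slightly lower in both pairs, with a difference of -0.23 ± 0.11 and an interval of -0.52 to 0.06 (limma adjusted p = 0.411).

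In the thioredoxin branch, Srxn1, which repairs over-oxidized peroxiredoxins, stood at 147 and 33.3 FPKM in coculture 1 and 2 and at 71.1 and 22.8 FPKM in mock 1 and 2. It was higher in both pairs, by a ratio of 2.07 in pair 1 and 1.46 in pair 2. The difference was 0.78 ± 0.16, with an interval of 0.35 to 1.22, and it did not pass (limma adjusted p = 0.193). Its substrate Prdx1, a peroxide-reducing enzyme and the most abundant of the 10 transcripts per length in every library, stood at 502 and 488 FPKM in coculture and 439 and 424 FPKM in mock. Coculture was above mock in both pairs, by ratios of 1.14 and 1.15, and the difference of 0.20 ± 0.13 had an interval of -0.14 to 0.54 (limma adjusted p = 0.527). Txnrd1, which keeps thioredoxin reduced, stood at 264 and 88.2 FPKM in coculture and 186 and 94.7 FPKM in mock. It was higher in pair 1 (0.51) and lower in pair 2 (-0.10), with a mean of 0.20 ± 0.18 (limma adjusted p = 0.641).

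Nqo1, a quinone reductase often used as a readout of NRF2, was low in pair 1 and barely detected in pair 2. It stood at 3.53 and 0.369 FPKM in coculture and 2.85 and 0.613 FPKM in mock, which corresponds to an estimated 89.1 and 7.0 reads in coculture and 68.0 and 15.0 reads in mock. The pairs differed in sign (0.23 and -0.24), and at this depth a difference between the pair 2 libraries would rest on few reads. Its mean difference was -0.00098 ± 0.23, with an interval of -0.61 to 0.61 (limma adjusted p = 0.999). The other 9 genes had an estimated 919.9 to 30396 reads per library. Nfe2l2, which encodes NRF2 itself, stood at 68.1 and 38.9 FPKM in coculture and 65.7 and 56.5 FPKM in mock. Pair 1 differed by 0.05 and pair 2 by -0.53, for a mean of -0.24 ± 0.18 (limma adjusted p = 0.571).

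**Figure D2:**
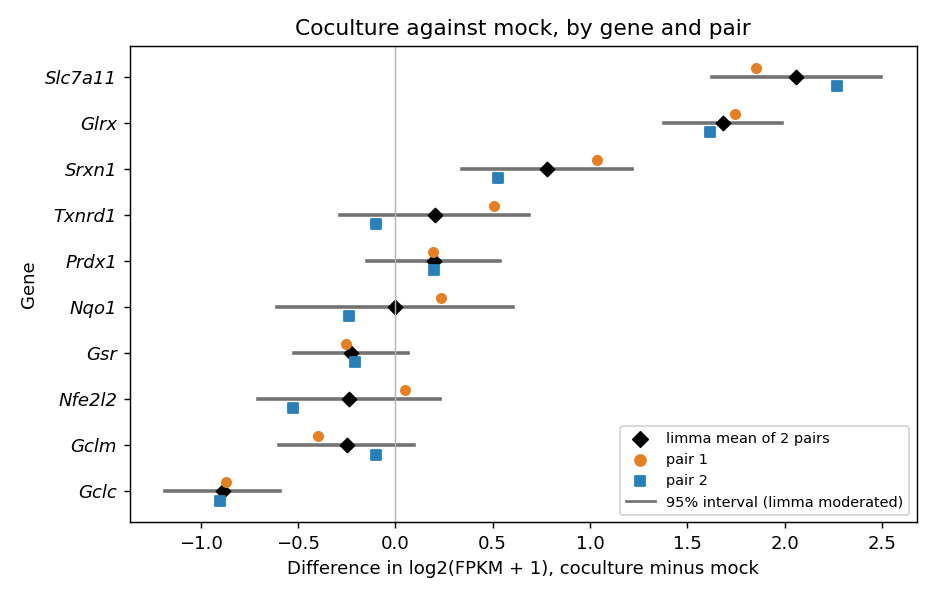
Difference in log2(FPKM + 1), coculture minus mock, for each gene (rows), as limma's mean over 2 pairs (diamond) with its unadjusted 95% interval, and in pair 1 (circle) and pair 2 (square). Glrx and Slc7a11 lie at 1.68 and 2.06 with both pairs close by, Gclc lies at -0.89, and the pairs of Txnrd1, Nqo1 and Nfe2l2 fall on both sides of 0.

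By sign, 4 of the 10 were higher in both pairs (Glrx, Slc7a11, Srxn1 and Prdx1), against 21.5% of all genes tested. A further 3 were lower in both (Gclc, Gclm and Gsr), against 42.2%, and 3 differed in sign between the pairs (Txnrd1, Nqo1 and Nfe2l2), against 35.8%. A difference of at least 1 log2 unit in the same direction in both pairs, a description with no test, was reached by 2 higher genes (Glrx and Slc7a11), against 1.02% of all genes, and by 0 lower ones, against 0.353%. With the members chosen after earlier results were known, these shares too are a description only. The median difference of the 10 was 0.10, or 0.21 in pair 1 and -0.10 in pair 2, beside -0.07 over all genes tested.

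**Figure D3:**
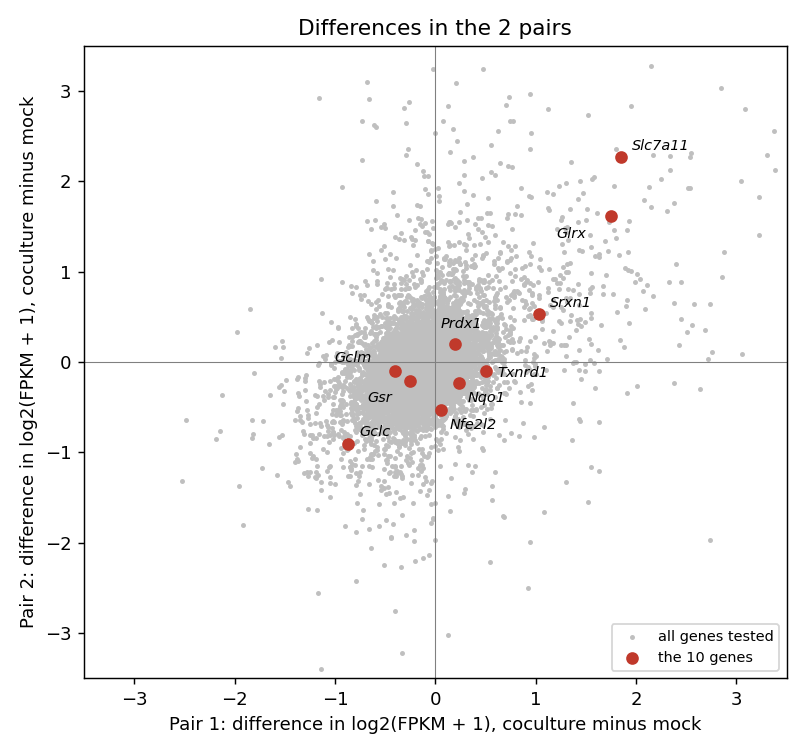
Difference in log2(FPKM + 1), coculture minus mock, in pair 1 (x) and pair 2 (y) for all genes tested (grey) and the 10 genes (red). Glrx and Slc7a11 sit to the upper right and Gclc to the lower left, while Gclm, Gsr, Nqo1, Txnrd1, Prdx1 and Nfe2l2 lie within the main cloud; 34 genes fall outside the axes at 3.5.

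Markers of epithelial and mesenchymal cells were near 0. The 15 epithelial markers summed to 0.205 and 0.045 FPKM in coculture 1 and 2 and to 0.143 and 0.0 FPKM in mock 1 and 2, with Epcam and Krt18 at 0 in every library and Krt8 at most at 0.068 FPKM. The 14 mesenchymal markers summed to 2.74 and 2.11 FPKM in coculture and 3.05 and 1.92 FPKM in mock, mostly from Tagln and Acta2, while Col1a1, Sparc and Cav1 stayed at or under 0.282 FPKM. Of 12 macrophage markers, 11 reached 1 FPKM in every library, and the exception was Mertk. They summed to 10342 and 13299 FPKM in coculture and 9850 and 6165 FPKM in mock, mostly from Lyz2. Lyz2 stood at 6585 and 10287 FPKM in coculture and 7088 and 3529 FPKM in mock, lower in pair 1 and higher in pair 2. The part of these marker levels in the results above was not tested. Csf1r stood at 472 and 397 FPKM in coculture and 637 and 535 FPKM in mock, and Adgre1 at 19.7 and 32.7 FPKM in coculture and 18.3 and 32.1 FPKM in mock. Cd14, a lipopolysaccharide co-receptor, stood at 1732 and 1149 FPKM in coculture and 607 and 354 FPKM in mock, a difference of 1.60 ± 0.15 (limma adjusted p = 0.0623). Itgam, an integrin of myeloid cells, stood at 42.0 and 129 FPKM in coculture and 35.5 and 79.8 FPKM in mock, a difference of 0.46 ± 0.15 (limma adjusted p = 0.305). Cd14 and Itgam were named after their values were seen. Of the 11 macrophage markers tested, 3 were higher in both pairs, 4 were lower in both and 4 were opposite. The shares over all genes tested were 21.5%, 42.2% and 35.8%. Those lower in both pairs were Csf1r (-0.43 ± 0.13), Ptprc (-0.37 ± 0.16), Tyrobp (-0.30 ± 0.18) and Cd68 (-0.13 ± 0.14), and none of them passed the test. Depth was estimated at 12200000 to 16200000 reads for each library.

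A wider set of 129 genes in 6 lists around the same systems gave 102 genes tested. In limma 0 passed in either direction, against 0.127% of all genes tested called higher and 0.0% called lower. At shares this low, 0 calls here or in each of the 6 lists below is no result about those genes. At an unadjusted p under 0.05, 9 of the 102 were higher, against 5.26% of all genes tested, and 10 were lower, against 9.45%. Signs were split, with 31 higher in both pairs (21.5% of all genes), 40 lower in both (42.2%) and 30 opposite (35.8%). The lowest of the 6 medians was -0.17, for NADPH supply, and the highest 0.19, for glutathione synthesis and breakdown. When 1 library was left out, unblocked and so across the tables, the NADPH median ran from -0.18 to -0.046, the value nearest 0 without mock 1, and the synthesis median from 0.16 to 0.29, the highest without coculture 1.

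**Figure D4:**
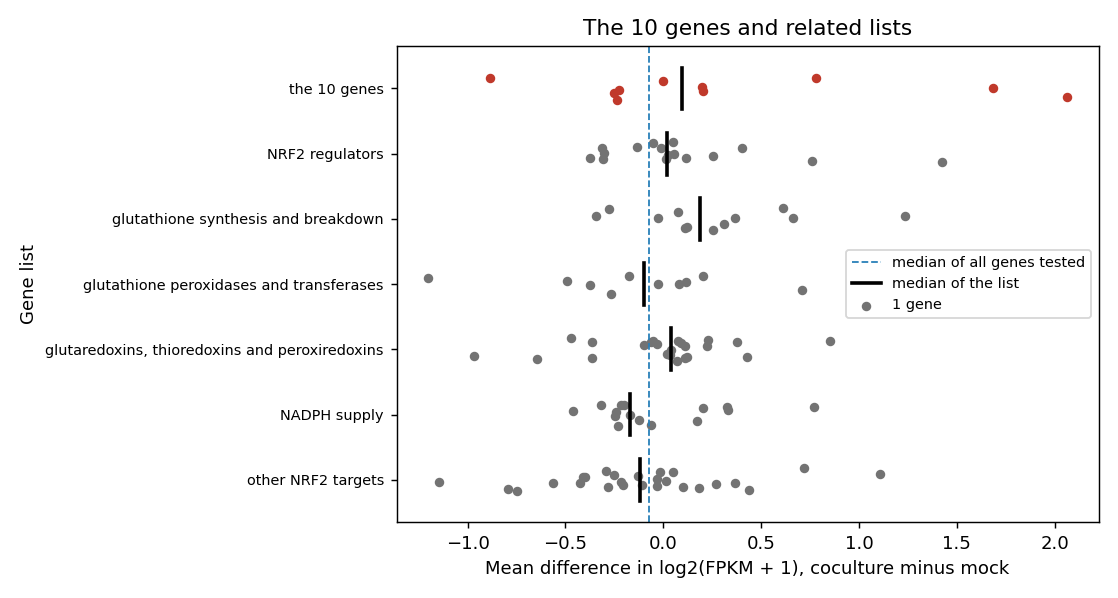
Mean difference in log2(FPKM + 1), coculture minus mock, for the 10 genes (red) and each gene tested in the 6 related lists (grey), with the median of each list (black bar) and of all genes tested (dashed line, -0.07). The list medians lie between -0.17 and 0.19, and Glrx and Slc7a11 lie to the right of every gene in the other lists.

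Among NRF2 regulators, 16 of 18 were tested, with 0 past the test. In both pairs 5 were higher and 5 lower, against 21.5% and 42.2% of all genes. Sqstm1, the autophagy receptor that binds KEAP1, stood at 899 and 245 FPKM in coculture and 398 and 192 FPKM in mock, a difference of 0.76 ± 0.23 (limma adjusted p = 0.287). Maff, a small MAF partner of NRF2, stood at 11.7 and 3.84 FPKM in coculture and 1.23 and 2.83 FPKM in mock. Most of its difference of 1.42 ± 0.54 came from pair 1 (2.51, against 0.34 in pair 2). Nfe2l1, the related factor NRF1, differed by 0.40 ± 0.14. Bach1, a repressor at the same DNA elements, differed by -0.37 ± 0.15 and Keap1 by -0.30 ± 0.15, and both were lower in each pair.

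For glutathione synthesis and breakdown, 12 of 17 were tested, with 0 past the test. In both pairs 8 were higher and 1 lower, against 21.5% and 42.2% of all genes. Abcc1, an exporter of glutathione conjugates, stood at 125 and 99.7 FPKM in coculture and 92.4 and 53.2 FPKM in mock, a difference of 0.66 ± 0.15 (limma adjusted p = 0.217). Chac1, which degrades glutathione and is an ATF4 target, stood at 3.34 and 7.19 FPKM in coculture and 2.37 and 3.51 FPKM in mock. Cth, which makes cysteine from cystathionine, differed by 2.33 in pair 2 but by 0.14 in pair 1. Chac2, a relative of Chac1, differed by 0.37 ± 0.21, mostly from pair 2 (0.66, against 0.07 in pair 1).

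For glutathione peroxidases and transferases, 10 of 25 were tested, with 0 past the test. In both pairs 1 was higher and 5 were lower, against 21.5% and 42.2% of all genes. Gpx1, the main cytosolic glutathione peroxidase, stood at 167 and 115 FPKM in coculture and 199 and 162 FPKM in mock, a difference of -0.37 ± 0.12 (limma adjusted p = 0.307). Gstm1 differed by -0.49 ± 0.15. Mgst3 stood at 53.5 and 14.2 FPKM in coculture and 61.6 and 68.9 FPKM in mock, so its difference lay mainly in pair 2. Gstt3, the gene higher in both pairs, differed by 0.71 ± 0.32, mostly from pair 2 (1.28, against 0.14 in pair 1).

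All 23 other glutaredoxin, thioredoxin and peroxiredoxin genes were tested, with 0 past the test. In both pairs 9 were higher and 8 lower, against 21.5% and 42.2% of all genes, with Glrx5 among those lower. Among the other glutaredoxins, Glrx2, a mitochondrial and nuclear form, stood at 5.35 and 7.17 FPKM in coculture and 5.29 and 6.05 FPKM in mock. Glrx3, which handles iron-sulfur clusters, stood at 12.1 and 2.29 FPKM in coculture and 9.90 and 1.33 FPKM in mock. Glrx5 was listed at 0 FPKM in coculture 1 and 0.140 FPKM in mock 1, against 66.7 FPKM in coculture 2 and 66.9 FPKM in mock 2. Its lower sign in both pairs rests on values near 0 in the first table and on a difference of -0.0044 in pair 2. Prdx5 stood at 155 and 128 FPKM in coculture and 104 and 58.3 FPKM in mock, a difference of 0.85 ± 0.17 (limma adjusted p = 0.185). Txnip, which binds and inhibits thioredoxin, stood at 51.7 and 128 FPKM in coculture and 92.0 and 177 FPKM in mock, a difference of -0.64 ± 0.14 (limma adjusted p = 0.197). Txn1 itself differed by 0.09 ± 0.13. Sesn1, a stress-induced regulator, differed by -0.96 ± 0.42, mostly from pair 1 (-1.80, against -0.13 in pair 2). Msrb1, a methionine sulfoxide reductase, differed by -0.47 ± 0.12.

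For NADPH supply, 15 of 16 were tested, with 0 past the test. In both pairs 3 were higher and 9 lower, shares near the 21.5% and somewhat above the 42.2% of all genes. Nadk, which makes NADP from NAD, stood at 160 and 140 FPKM in coculture and 85.5 and 89.2 FPKM in mock. Coculture was above mock in both pairs, and the difference was 0.77 ± 0.13 (limma adjusted p = 0.144). Malic enzyme Me1 differed by 0.33 ± 0.17 (0.10 in pair 1 and 0.56 in pair 2). The mitochondrial enzymes Nnt and Idh2 differed by -0.46 ± 0.15 and -0.32 ± 0.11.

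Of 30 other NRF2 targets, 26 were tested, with 0 past the test. In both pairs 5 were higher and 12 lower, shares near the 21.5% and 42.2% of all genes. Hmox1, the inducible heme oxygenase, stood at 750 and 113 FPKM in coculture and 784 and 101 FPKM in mock, a difference of 0.05 ± 0.13 (limma adjusted p = 0.879). Akr1b8, an aldo-keto reductase, stood at 263 and 259 FPKM in coculture and 223 and 64.5 FPKM in mock. Cd36, a scavenger receptor, stood at 166 and 122 FPKM in coculture and 127 and 58.3 FPKM in mock, a difference of 0.72 ± 0.19 (limma adjusted p = 0.250). Ephx1 and Abcc3 were lower in both pairs, by -0.79 ± 0.27 and -0.75 ± 0.30. Each differed more in pair 2 (-1.24 and -1.26) than in pair 1 (-0.34 and -0.24).

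Genes averaging 2 FPKM or more were ranked by how near their pair differences were to those of Glrx, by Euclidean distance over 2 pairs. Predicted and clone-based symbols, such as those ending in Rik, were left out. The 5 nearest of the genes ranked were Hcar2, Vegfa, Slc31a2, Rnf19b and Sema4b, at distances of 0.069, 0.14, 0.16, 0.19 and 0.25. Hcar2, a receptor for niacin and ketone bodies, stood at 6.08 and 7.18 FPKM in coculture and 1.14 and 1.79 FPKM in mock. Rnf19b, a ubiquitin ligase, stood at 84.8 and 45.8 FPKM in coculture and 21.5 and 14.8 FPKM in mock. With 4 libraries this likeness is a description only.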

How the data were processed

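The authors deposited FPKM in 2 tables, 1 per replicate number. Trim Galore, Subread and featureCounts are the tools, and hg38 the build, per the submitters' processing notes, although the symbols are mouse. The sources used here give no versions, annotation, strand setting or gene lengths. The deposited tables differ in annotation (23427 and 25239 rows), so tests use differences within a table, and levels set across the tables are description only. Unnamed rows (23) and repeated names (106, on 287 rows) of the first table were left out.

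Values were used as log2(FPKM + 1), which understates changes of low genes. The comparison used limma 3.58.1 under R 4.3.3, two-sided, with a trended prior variance and a block for the pair, since the tables were made separately. Residual degrees of freedom were 1 and prior degrees of freedom 3.43. Deviations of the libraries of a pair from their group means correlated at 0.76 across genes.

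Reads were estimated from the steps of low FPKM values and GENCODE M21 exon lengths. Of low values under 4.5 estimated reads, 38.0% to 40.5% lay within 0.05 of a whole number, so the estimates are approximate. Counting strand is not stated, and Gclm, Slc7a11 and Txnrd1 overlap genes on the opposite strand in that annotation. On the same strand, Gclm, Gsr, Nfe2l2, Slc7a11 and Txnrd1 overlap other annotated genes, with the protein-coding Eid3 overlapping Txnrd1. The part of these overlaps in the FPKM values was not tested.

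The members and lists were chosen with earlier results of these data known. Named genes were the 10 members, up to 4 per list with the largest difference of 1 sign in both pairs and a mean of at least 2 FPKM, and Hmox1, Keap1, Txn1, Glrx2, Glrx3 and Glrx5. The marker genes are given by their lists, and Slc3a2, Cd14 and Itgam were named after their values were seen. Alternatives changed the pseudocount, filter, scaling, block, prior or libraries.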

Additional observations from a re-analysis of the deposited data

How the results depend on the processing

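With 2 pairs, Glrx and Slc7a11 lie close to the threshold, and the cause of their shifts was not tested. Glrx kept its direction under all 13 alternatives. Its call was lost at a difference of 1.68 with no filter on low values (limma adjusted p = 0.243) and without the replicate block (0.825). The call was also lost at 1.68 with no trend in the prior variance (0.101), and at 1.69 with a pseudocount of 0.5 (0.0520). When 1 library was left out, unblocked, the Glrx difference ran from 1.39 to 1.97. Such fits leave a single library in a group and cannot decide a call. Slc7a11 passed at a filter of 5 FPKM (limma adjusted p = 0.0424), after rescaling to 1 total (0.0422), median centring (0.0114) and quantile normalization (0.0428). It did not pass with a pseudocount of 0.1 (0.0553) or 0.5 (0.0625), or with no trend in the prior variance (0.101). Nor did Slc7a11 pass with no filter on low values (0.244) or without the replicate block (0.99961). Its difference ran from 1.35 to 2.77 when 1 library was left out, unblocked. Gclc and Gsr stayed lower and Prdx1 higher under all 13, without a call. Leaving out 1 library unblocked sets libraries of different tables against each other, and there Srxn1 ran from -0.27 to 1.83, Gclm from -1.68 to 1.18, Txnrd1 from -0.58 to 0.99, Nfe2l2 from -0.63 to 0.16, Nqo1 from -0.86 to 0.86 and the median of the 10 genes from -0.50 to 0.93. Nqo1 was 0.065 after median centring and 0.053 after quantile normalization. Nqo1 was not tested with at least 5 FPKM.

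Over all genes, limma's 13 higher and 0 lower became 25 and 1 with at least 5 FPKM, 25 and 1 after rescaling, 85 and 18 after median centring, 43 and 3 after quantile normalization, and 22 and 0 with a pseudocount of 0.1. With no filter there were 0 of either, with 634 up and 986 down at an unadjusted p under 0.05. There was 1 higher gene without the replicate block, 1 with no trend, and 0 without any single library (141 to 275 higher at an unadjusted p under 0.05). Genes 2-fold different in both pairs were 104 higher and 36 lower, or 245 and 221 at a bound of 1.5-fold, and 75 lower with a pseudocount of 0.1.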

Other observations

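All 10 genes had a higher FPKM in the first table than in the second in both groups, with a median log2 ratio of 0.97 between the coculture libraries and 0.93 between the mock libraries. Over all genes tested, 43.2% were higher in the first table in coculture and 45.8% in mock, with medians of -0.08 in coculture and -0.04 in mock. No test was made across the tables. The gap was 2.56 in coculture and 2.85 in mock for Gclm, and 0.04 in coculture and 0.05 in mock for Prdx1. Hmox1 stood at 750 and 113 FPKM in coculture 1 and 2 and at 784 and 101 FPKM in mock 1 and 2. Of the 26 other NRF2 targets tested, 12 were higher in the first table in coculture and 17 in mock. The tables were made separately and differ in annotation, and the replicate, the table and any difference in culture cannot be told apart.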
